A study of Mus musculus with 36 samples.

Results

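Hallux and thumb, the first digits of foot and hand, were compared by open chromatin in the cartilage of E15.5 mouse embryos. Accessibility was measured by ATAC-seq: a transposase inserts adapters where DNA is open, and places where many insertions pile up are called as peaks. Hallux regions were defined as regions called in both hallux peak lists (digit I foot phalanges and digit I metatarsal) and in neither thumb list (digit I hand phalanges and digit I metacarpal), and thumb regions as the reverse. Overlapping peaks of the 4 digit I lists (1 bp or more in common) were joined into 52813 regions, against 65543 when all 12 lists of the series were merged. Of the 52813, 2137 (4.05%) were hallux regions and 555 (1.05%) were thumb regions, 2692 together. These calls chose the members, so their number is a description and carries no test.

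All groups were chondrocytes of FVB/NJ embryos with no other allele or agent named in the labels, and they differed in limb, skeletal element and digit (I, III or V). The phalanges of digit I were the proximal and distal ones, and those of digits III and V included the intermediate one as well. Each of the 36 libraries (3 in each of 12 groups) pooled the left and right elements of 3 to 5 embryos of a single litter, or 6 to 10 limbs, and the target per library was 40 M reads or more over up to 2 sequencing runs. The files analysed here hold 1 peak list per group, called on pooled libraries, so no replicate could be compared and the lists are the units of every test. In such bulk tissue, fewer cells with an open site and less opening per cell cannot be told apart.

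The forelimb and hindlimb are built by a largely shared programme, and a few transcription factors tell them apart: Tbx5 acts in the forelimb, and Pitx1, Tbx4 and a set of HoxC genes act in the hindlimb. Digit I is the anterior digit and forms where Sonic hedgehog signalling is lowest. Its metapodial and phalanges grow by proliferation and then enlargement of chondrocytes in growth plates, with joints between the elements.

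A small share of the members lay at promoters. Windows from 250 bp before to 50 bp after an annotated start, taken from RefSeq for GRCm38.p6, were overlapped by 124 of the 2137 hallux regions (5.8%) and 25 of the 555 thumb regions (4.5%), against 12802 of all 52813 digit I regions (24.2%). Windows of 4 genes are shown because they span what members did in the other digits. They were chosen after their values were seen. Bases are in lower case, 5′ to 3′ on the gene's strand, and capitals mark matches to 4 searched motifs. The Hoxc4 window lies at chr15:103034145-103034444 (plus strand), in a hallux region called in 2 of 4 hindlimb and 3 of 4 forelimb lists of digits III and V.
Hoxc4: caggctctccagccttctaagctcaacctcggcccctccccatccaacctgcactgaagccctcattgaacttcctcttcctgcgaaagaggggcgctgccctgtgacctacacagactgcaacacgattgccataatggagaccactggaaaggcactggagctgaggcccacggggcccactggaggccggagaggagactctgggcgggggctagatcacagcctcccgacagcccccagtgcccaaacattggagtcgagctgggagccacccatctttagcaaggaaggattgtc
The Myf5 window lies at chr10:107486085-107486384 (minus strand), in a hallux region called in all 8 lists of digits III and V.
Myf5: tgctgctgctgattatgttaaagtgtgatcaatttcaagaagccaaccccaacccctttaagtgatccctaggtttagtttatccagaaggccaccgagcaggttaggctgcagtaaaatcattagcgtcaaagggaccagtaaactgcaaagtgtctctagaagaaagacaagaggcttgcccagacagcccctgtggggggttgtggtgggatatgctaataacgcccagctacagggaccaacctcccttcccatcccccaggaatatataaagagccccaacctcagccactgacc
The Lef1 window lies at chr3:131156044-131156343 (plus strand), in a thumb region called in 0 of those 8 lists.
Lef1: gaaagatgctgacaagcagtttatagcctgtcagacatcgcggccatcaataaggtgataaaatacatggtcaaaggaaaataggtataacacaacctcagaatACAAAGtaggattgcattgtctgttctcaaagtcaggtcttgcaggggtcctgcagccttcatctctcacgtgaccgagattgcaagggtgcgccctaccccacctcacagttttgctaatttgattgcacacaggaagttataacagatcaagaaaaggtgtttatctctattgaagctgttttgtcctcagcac
The Tenm4 window lies at chr7:96170994-96171293 (plus strand), in a thumb region called in all 4 forelimb and 2 of 4 hindlimb lists.
Tenm4: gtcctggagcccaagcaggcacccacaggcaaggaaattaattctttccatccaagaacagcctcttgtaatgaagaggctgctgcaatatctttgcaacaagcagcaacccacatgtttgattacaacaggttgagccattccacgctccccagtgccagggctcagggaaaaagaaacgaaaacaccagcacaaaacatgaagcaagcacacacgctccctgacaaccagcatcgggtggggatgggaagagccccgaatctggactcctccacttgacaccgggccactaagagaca
Hoxc4 encodes a homeodomain factor of the HoxC cluster, Myf5 a factor that commits cells to muscle, Lef1 a nuclear partner of beta-catenin in Wnt signalling and Tenm4 a teneurin, a large cell surface protein. The motifs searched on both strands were TAATCC (PITX type), AGGTGTGA (T-box), CAATAAA (HOX13 type) and ACAAAG (SOX type), and the only match in the 4 windows was ACAAAG in the Lef1 window. Among 137 windows at hallux regions the shares with a match were 7.3%, 0.73%, 6.57% and 21.2% in that order of motifs. Among 29 windows at thumb regions they were 6.9%, 3.45%, 0% and 27.6%, against 5.35%, 0.861%, 2.47% and 13.6% of the 17767 windows at any digit I region and 7.06%, 1.28%, 4.6% and 18.7% of all 32851 windows. The thumb shares rest on 2, 1, 0 and 8 windows.

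The number of members depended on how long the lists were. The foot phalanges list of digit I held 39121 peaks, the metatarsal list 46582, the hand phalanges list 38947 and the metacarpal list 36194. With the first 36194 lines of each list, which are its most significant peaks, 1013 of 46301 regions (2.19%) were hallux regions and 1065 (2.3%) were thumb regions. The surplus of hallux over thumb regions in the full lists was therefore absent at equal length, and shortening the metatarsal list alone, an alternative added after the data were seen, gave 992 hallux and 1241 thumb regions. The members changed as well as their number: 797 regions were hallux regions in both settings (37.3% of the 2137 and 78.7% of the 1013), and 405 were thumb regions in both (73.0% of the 555 and 38.0% of the 1065). Of the 1065 thumb regions at equal length, 621 (58.3%) were covered by a peak further down the full metatarsal list and 116 (10.9%) further down the full foot phalanges list. Of the 1013 hallux regions, 216 (21.3%) were covered further down the full hand phalanges list. A region absent from a list may thus lie below that list's end and need not be closed.

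Members came from the weaker end of each list. The median position of the hallux regions was 82.9% of the way down the foot phalanges list and 79.2% down the metatarsal list, and the thumb regions stood at 82.6% of the hand phalanges list and 82.7% of the metacarpal list. In the stronger 50% of a list lay 0.889%, 3.04%, 1.08% and 1.62% of the members, in the same order of lists. Fold enrichment, here and below the authors' peak caller's ratio of signal to background, had a median over members of 6.87, 6.27, 7.18 and 8.79 in these lists, against 11.4, 9.67, 12.3 and 15.6 over all peaks. These values are tied to the rule and describe the members only. Just outside the rule lay 3949 regions called in both hallux lists and 1 thumb list, 2994 called in both thumb lists and 1 hallux list, and 4297 called in 1 hallux and 1 thumb list. The last group is called in the same number of digit I lists as the members and serves below as their comparison.

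**Figure D1:**
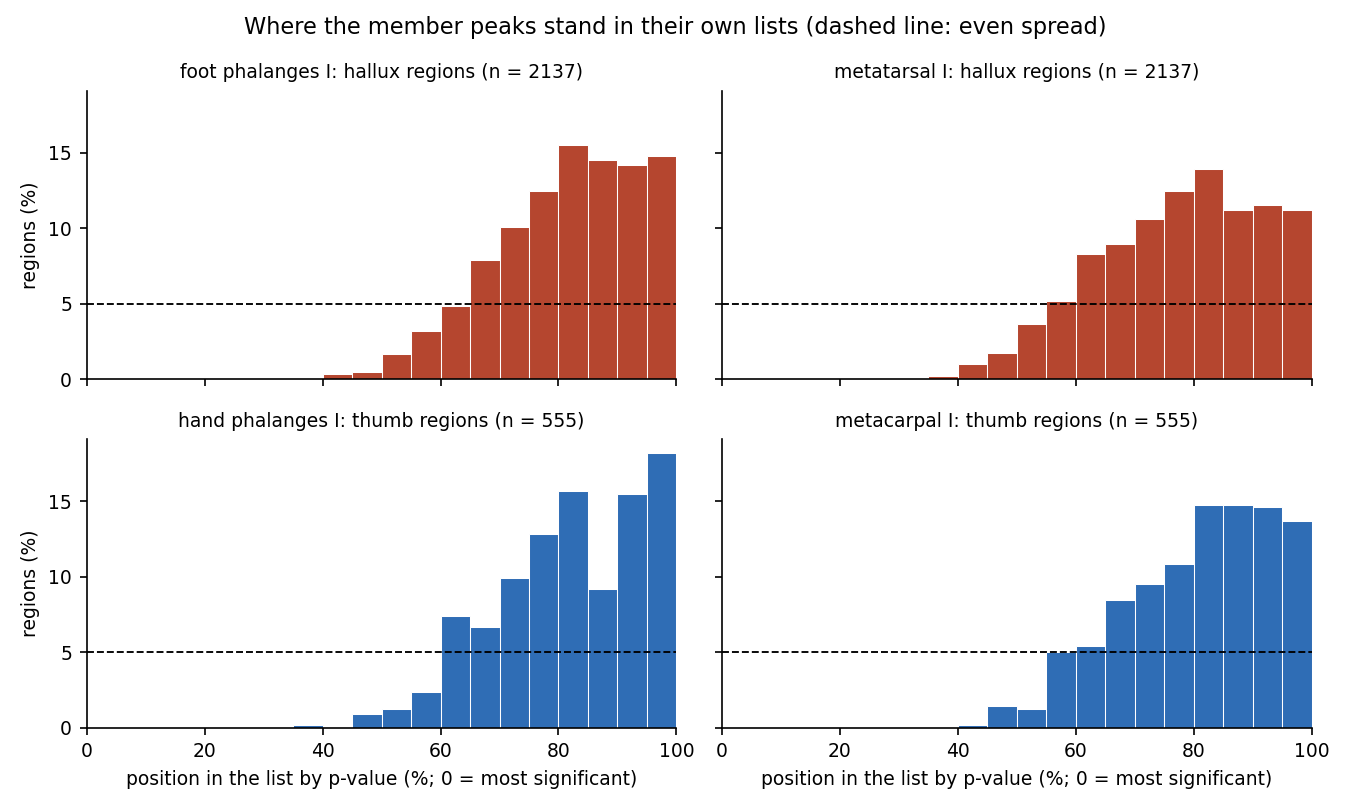
Position of member peaks in their own digit I lists, ordered by p-value (x axis, percent of the list, 0 is the most significant peak; y axis, percent of member regions per bin). The bars stay below the dashed line of an even spread in the first part of each list and above it near the end, with medians of 82.9%, 79.2%, 82.6% and 82.7%.

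Hallux and thumb regions were mostly distal elements. Of the hallux regions 105 (4.91%) and of the thumb regions 23 (4.14%) had a protein-coding gene's end within 1 kb, against 4.05% of regions in 1 hallux and 1 thumb list, 20.4% of all digit I regions and 36.3% of those in all 4 lists. The median distance to a gene end was 32.1 kb for hallux, 30.6 kb for thumb and 31.5 kb for the comparison regions. Inside a gene lay 48.8% and 54.4% of the members. Exons and introns are not told apart, because the annotation used here gives gene bounds only. Position therefore set members apart from shared regions but hardly from other regions called in 2 lists. Members were spread thinly, with the hallux regions assigned by nearest gene end to 1796 genes (at most 4 each) and the thumb regions to 519 (at most 2 each).

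The limb side was kept by a minority of members in digits III and V, which the rule did not use. A region kept its side in a digit when both elements of its own limb and neither element of the other limb were called. Of the 2137 hallux regions, 147 (6.88%) did so in digit III, against 1.28% of all digit I regions on the hindlimb side there and 2.40% of the comparison regions. In digit V, 310 (14.5%) did so, against 2.39% and 2.40%. Both digits kept the side in 51 hallux regions (2.39%), against 0.25% of all regions and 0.233% of the comparison regions, and the 51 were thus part of the 132 regions on the hindlimb side in both. The opposite side was taken by 39 hallux regions (1.82%) in digit III and 17 (0.796%) in digit V. On that forelimb side were 1.44% and 1.34% of all digit I regions and 3.26% and 3.93% of the comparison regions.

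Thumb regions that kept their side were fewer in number, and their shares also exceeded both backgrounds. Of the 555, 30 (5.41%) kept the forelimb side in digit III, against 1.44% of all regions and 3.26% of the comparison regions. In digit V 40 (7.21%) did so, against 1.34% and 3.93%, and 4 (0.721%) kept it in both, against 0.11% and 0.186%. The opposite side was taken by 5 (0.901%) in digit III and 2 (0.36%) in digit V. On that hindlimb side were 1.28% and 2.39% of all regions and 2.40% of the comparison regions in each digit. Whether hallux and thumb regions differ in these shares was not tested, since regions of a list are not replicates.

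The shares that kept the side were also above background at equal length. Hallux regions kept their side in digit III in 94 cases (9.28%, background 1.69%), in digit V in 161 (15.9%, background 2.19%) and in both in 38 (3.75%, background 0.328%). Thumb regions did so in 56 (5.26%, background 1.03%), 93 (8.73%, background 1.41%) and 10 (0.939%, background 0.132%). For both kinds of member and in both settings the order was digit V above digit III. All digit I regions had this order too, except on the forelimb side in the full lists (1.44% in digit III, 1.34% in digit V). With the more significant 50% of each list the thumb order reversed, with 8 regions in digit III and 3 in digit V. The order is thus not particular to the members.

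**Figure D2:**
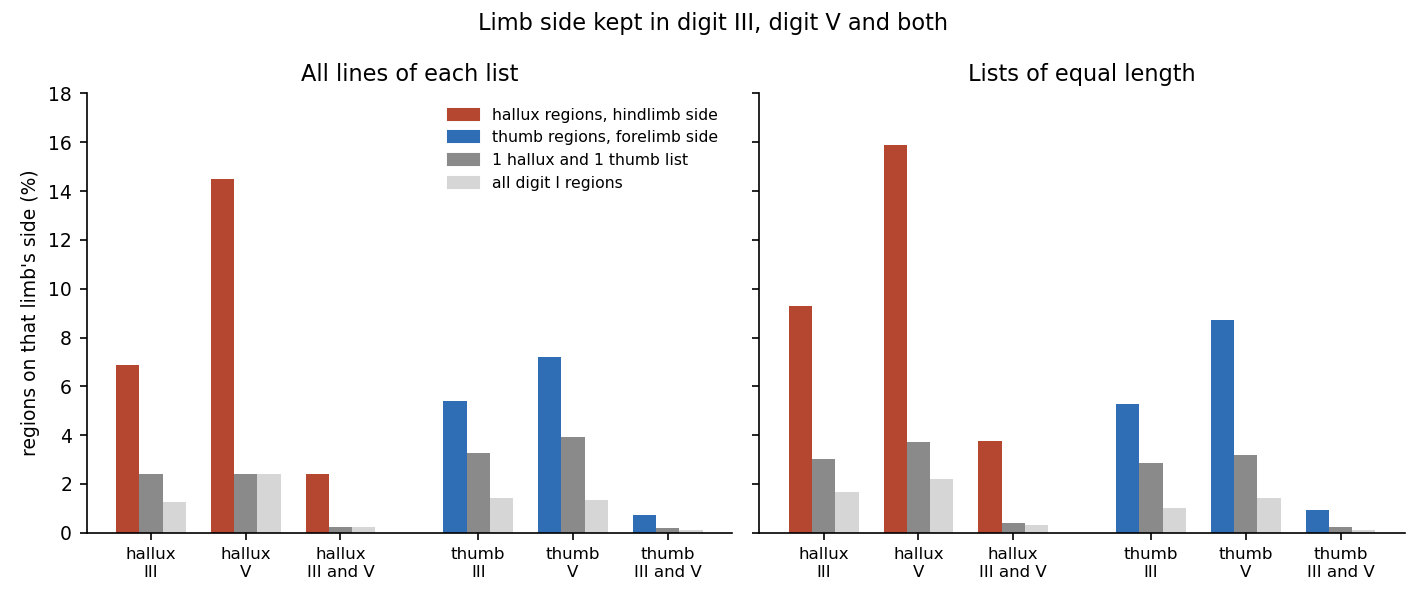
Percent of regions (y axis) on the limb side named under each group of bars in digit III, digit V and both digits, for the full lists (left) and lists of equal length (right). Coloured bars are hallux or thumb regions, dark grey bars regions called in 1 hallux and 1 thumb list, and light grey bars all digit I regions; every coloured bar is the highest of its group, up to 14.5% on the left and 15.9% on the right.

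A looser reading counted calls over the 8 lists of digits III and V. More hindlimb than forelimb lists called 1270 of the hallux regions (59.4%), equal numbers called 550 (25.7%) and fewer called 317 (14.8%), where 31.9% of the comparison regions had more hindlimb calls. More forelimb lists called 295 of the thumb regions (53.2%), equal numbers 184 (33.2%) and fewer 76 (13.7%), where 34.5% of the comparison regions had more forelimb calls. Over 50% of each kind thus leaned to its own limb, although few kept the side completely. All 4 forelimb lists called 9.91% of the thumb regions, against 15.9% of the comparison regions (14.5% against 14.4% at equal length). No hindlimb list called 34.2% of the thumb regions, against 9.94%. All 4 hindlimb lists called 23.7% of the hallux regions, against 9.84%, and no forelimb list called 26.6%, against 15.2%. Called in none of the 8 lists were 81 hallux regions (3.79%), 92 thumb regions (16.6%) and 177 comparison regions (4.12%), and called in all 8 were 126 (5.90%), 2 (0.360%) and 176 (4.1%).

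Each list of digits III and V was then read for the share of members it called. Hallux regions were called at 80.8% in the foot phalanges list of digit III, 52.6% in its metatarsal list, 50.6% in its hand phalanges list and 52.4% in its metacarpal list. In digit V the shares were 70.2%, 43.9%, 36.6% and 22.8%. In the full lists the phalanges separated the limbs widely and the metatarsal and metacarpal lists of digit III hardly did. These lists differ in length. In the same order, those of digit III held 47375, 44292, 44289 and 53276 peaks, and those of digit V 39937, 36700, 36789 and 38250. The full-list shares are not corrected for this. At equal length the digit III gap was 20.4 points between metatarsal and metacarpal and 24.0 between phalanges. Thumb regions were called at 45.8%, 44.1%, 46.1% and 71.4% in the same order in digit III, and at 13.0%, 11.2%, 21.1% and 43.4% in digit V. For the thumb regions it was the metacarpal lists that stood above the rest. The comparison regions stood at 69.4%, 60.5%, 57.6% and 71.4% in digit III and at 37.7%, 35.3%, 32.3% and 45.4% in digit V, so in the full lists thumb regions were level with them in the metacarpal list of digit III and lower in the other 7. At equal length thumb regions were called at 54.0% and 51.9% in the metacarpal lists of digits III and V, above the 43.5% and 45% of the comparison regions. They were below the comparison regions in the hand phalanges lists (40.2% against 47.6% in digit III, 30.8% against 45.4% in digit V). They were also below them in every foot list. In the full lists hallux regions exceeded the comparison regions in both foot phalanges lists, in the metatarsal and hand phalanges lists of digit V, and in no other list.

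Averaged over lists, hallux regions were called at 61.9% ± 16.7 in hindlimb lists and 40.6% ± 13.8 in forelimb lists (SD, n = 4 lists each), a difference of 21.3 percentage points. The hindlimb list was higher in 4 of 4 pairs matched by element and digit (two-sided exact permutation p = 0.125, the smallest the 16 labellings allow, so this design could not pass 0.05). With the more significant 50% of each list the hallux difference was 22.2 points and its exact permutation p was above that floor (0.25). Thumb regions were called at 28.5% ± 19.0 in hindlimb and 45.5% ± 20.6 in forelimb lists, a difference of -17.0 points with the forelimb higher in 4 of 4 pairs (exact permutation p = 0.125). The digit III phalanges pair differed by only 0.36 points, and the exact permutation p was above its floor with autosomes alone (0.25), with the metatarsal list of digit I shortened (0.25) and with 50% cover (0.375, difference -7.21 points). The share of hallux regions minus that of thumb regions was 33.4 ± 19.9 points in hindlimb and -4.91 ± 17.8 points in forelimb lists, a difference of 38.3 points in 4 of 4 pairs (exact permutation p = 0.125). At equal length the 3 differences were 26.5, -15.8 and 42.3 points, again in 4 of 4 pairs and with the same exact permutation p of 0.125. Read by element in the full lists, the hallux difference was 31.9 points between phalanges and 10.7 between metapodials, and the thumb difference was -4.23 points between phalanges and -29.7 between metapodials. At equal length the hallux differences were 24.9 points between phalanges and 28.0 between metapodials, the reverse order, and the thumb differences were -11.7 and -19.9 points. The contrast between elements was not tested.

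**Figure D3:**
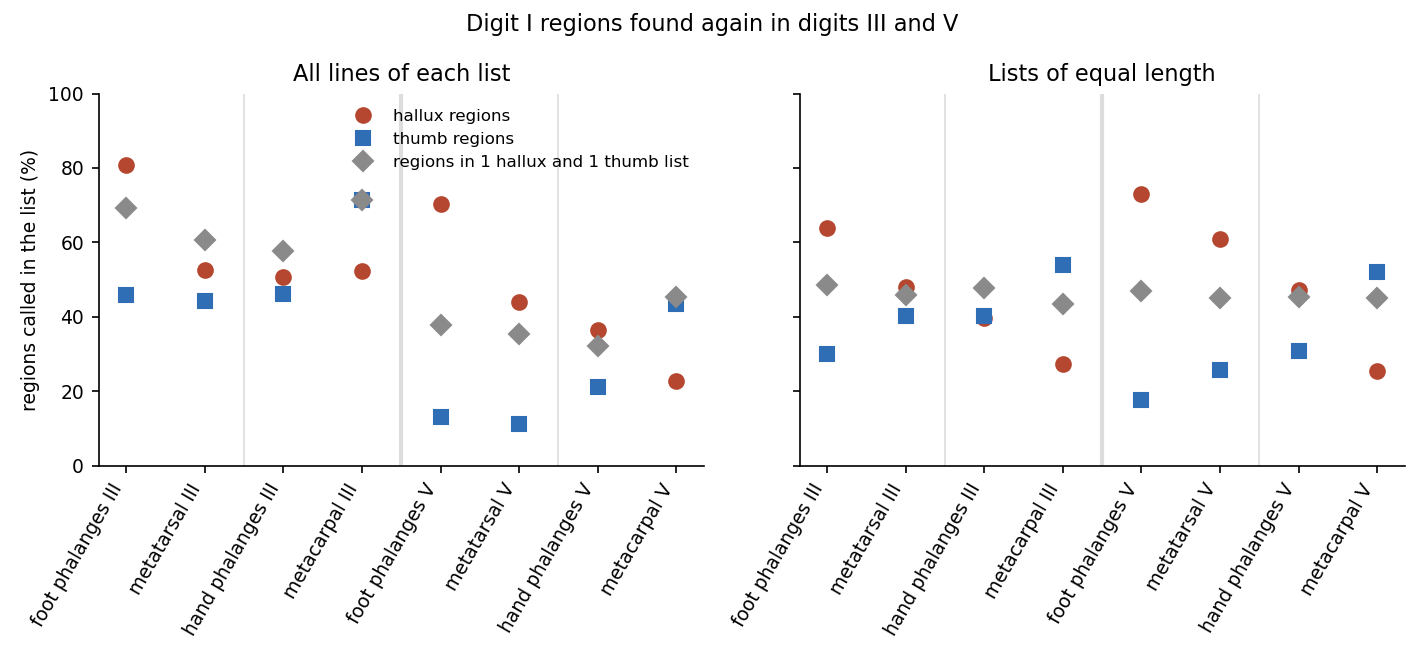
Share of hallux regions (circles), thumb regions (squares) and regions of 1 hallux and 1 thumb list (diamonds) called in each of the 8 lists of digits III and V (x axis; y axis in percent), for full lists (left) and equal length (right). In the full lists circles lie between 22.8% and 80.8% and squares between 11.2% and 71.4%, and squares lie above circles in both metacarpal lists alone.

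Genes that set limb identity held more hallux regions than the background. Of 81 digit I regions assigned to the 17 genes listed for limb identity, 12 (14.8%) were hallux regions, against 4.05% of all regions, and 1 (1.23%) was a thumb region, against 1.05%. The 12 lay at 8 genes, among them Pitx1, Isl1, Hoxc4 and Hoxc9 with 2 each, and Tbx4, Hoxc12 and Nr2f2 with 1 each. The thumb region lay at Tbx5. At equal length 4 of 73 (5.48%) were hallux regions, against 2.19%, and 1 was a thumb region. Most of the 12 had a peak beyond the first 36194 lines of at least 1 hallux list.

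The Tbx4 hallux region (chr11:85875237-85877779, between genes, 9.9 kb from the nearest end of Tbx4) held its limb side in every list of the series. Fold enrichment was 6.70 in the foot phalanges and 6.07 in the metatarsal of digit I, 6.99 and 5.78 in digit III, and 6.06 and 6.17 in digit V. None of the 6 hand lists called it. Tbx4 is a T-box factor of the hindlimb, and the region was a member in the full lists alone.

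Pitx1, a homeodomain factor that specifies hindlimb character, had hallux regions 62.9 kb (chr13:55897740-55900482) and 87.5 kb (chr13:55922661-55924633) from its nearest end. The farther region was called in all 4 hindlimb lists of digits III and V, with fold enrichments of 7.39, 7.77, 6.27 and 6.41, and in the metacarpal list of digit III at 6.25. It kept the hindlimb side in digit V. The nearer one was called in the foot phalanges list of digit V alone, at 5.25. Over all 7 digit I regions assigned to Pitx1, the called number was 7 and 6 in the foot phalanges and metatarsal of digit I, 6 and 5 in digit III and 7 and 5 in digit V. In hand phalanges and metacarpal it was 5 and 3 in digit I, 5 and 4 in digit III and 4 and 2 in digit V. The foot list was above the hand list of the same element and digit in every pair. Over the 4 pairs of digits III and V the mean difference was 2 regions (two-sided exact permutation p = 0.125, the smallest possible), a test on a gene picked with earlier results known. Genes outside the limb identity list had the same exact permutation p. Their mean differences were 2.5 regions at Ptprc, 2.25 at Smad3 and -2.25 at Trps1, so such a value is not particular to Pitx1. Both Pitx1 hallux regions were members in the full lists alone.

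HoxC genes carried the same side in part. Hoxc9 had a hallux region 3.0 kb from its end (chr15:102986807-102988004) with a fold enrichment of 10.4 in foot phalanges and 7.24 in metatarsal of digit I, 6.59 and 6.04 in digit III and 5.04 in foot phalanges of digit V. No hand list called it, and the metatarsal list of digit V did not either. The part of this region covered by both hallux lists (chr15:102987178-102987964) lay nearest to Hoxc8, also at 3.0 kb. Distance therefore hardly separates Hoxc8 from Hoxc9 here. The number of called regions at Hoxc9 was 3 in both hallux lists and 1 in both thumb lists, 3 and 2 against 1 and 1 in digit III, and 3 and 1 against 1 and 0 in digit V. Hoxc10, a neighbour in the cluster, had 1 region called in all 12 lists, and Hoxd13, a gene of the distal limb, likewise. Isl1, which acts upstream of hindlimb outgrowth, had 13 regions, of which 9 and 12 were called in the hallux lists and 7 and 7 in the thumb lists. In digit V they were 9 and 11 in the foot and 8 and 11 in the hand, so the Isl1 lists overlapped outside digit I.

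Tbx5, the forelimb counterpart of Tbx4, had 12 regions, with 7 called in each hallux list and 11 and 8 in the thumb lists. In digits III and V the counts were 6, 3, 8 and 3 in hindlimb and 6, 6, 5 and 5 in forelimb lists, which overlap. Its thumb region (chr5:119847388-119849178, inside Tbx5) had fold enrichments of 6.33 in hand phalanges and 13.1 in metacarpal of digit I and was called in none of the 8 lists of digits III and V. By merged regions, then, Tbx5 showed little of the limb difference.

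**Figure D4:**
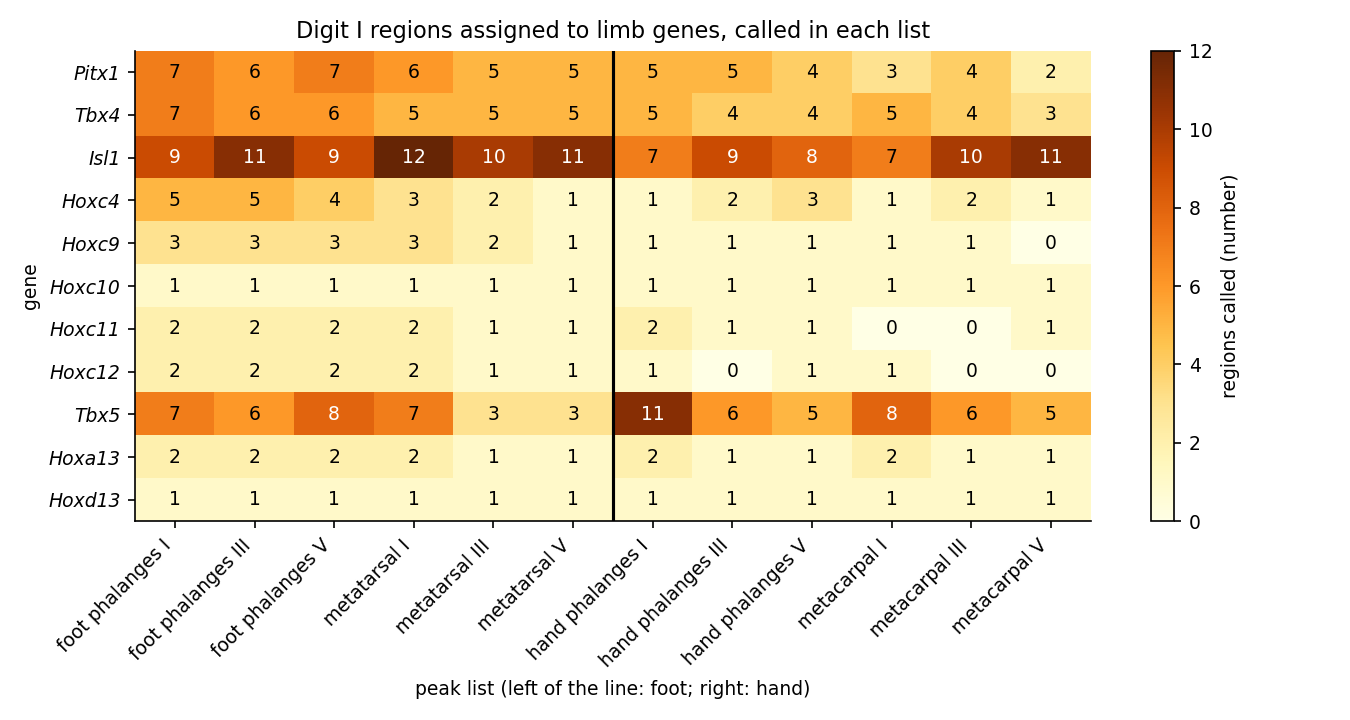
Number of digit I regions assigned to each limb gene (rows) that were called in each of the 12 lists (columns, foot left of the line and hand right of it). Pitx1 ranges from 5 to 7 in the foot and from 2 to 5 in the hand, Hoxc10 and Hoxd13 are at 1 throughout, and Tbx5 reaches 11 in the hand phalanges of digit I.

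Merging hides differences within wide regions, so stretches of at least 500 bp covered by both lists of 1 limb and by neither of the other were also read, a step added after the data were seen. At Tbx5, 6 thumb stretches summed to 24120 bp, 3 of them among the 4 widest of all 1731 thumb stretches. The stretches at chr5:119795379-119801667 (6289 bp) and chr5:119828085-119834908 (6824 bp), both inside Tbx5, were covered in all 4 forelimb lists of digits III and V and in no hindlimb list. Coverage of the first was 1189 and 1297 bp in hand phalanges and metacarpal of digit III and 1455 and 2034 bp in digit V. Coverage of the second was 3828 and 5269 bp in digit III and 4004 and 3821 bp in digit V. Every forelimb list thus covered part of both stretches, and the hindlimb lists covered no base of either. The widest stretch, chr5:119836214-119844460 (8247 bp), was covered over 6199, 6195, 6977 and 1121 bp in the same 4 lists and over 2806 and 1598 bp in the foot phalanges of digits III and V.

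Tbx4 mirrored this in the hindlimb. Its 4 hallux stretches summed to 9156 bp, of which 9023 and 7331 bp were covered in foot phalanges and metatarsal of digit III and 9102 and 7558 bp in digit V. The hand phalanges of digit III covered 1577 bp and the other 3 forelimb lists none. The widest, chr11:85887897-85892761 (4865 bp, inside Tbx4), was covered over 4865 and 4584 bp in the hindlimb lists of digit III and over 4865 and 4826 bp in those of digit V, and in no forelimb list. Pitx1 had 3 hallux stretches of 2914 bp in all, covered over 1390, 1400, 2914 and 1478 bp in the hindlimb lists and over 580, 783, 252 and 0 bp in the forelimb lists. No thumb stretch fell to Tbx4 or Pitx1, and no hallux stretch to Tbx5.

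Col2a1, which encodes the main collagen of cartilage, held a stretch of each kind in digit I. The hallux stretch (chr15:97987292-97991964, 4673 bp) was covered in 3 of 4 hindlimb and 4 of 4 forelimb lists of digits III and V. The thumb stretch (chr15:97979455-97984104, 4650 bp) was covered in all 4 forelimb lists, by at least 4389 bp, and over 4650 bp in the metatarsal of digit III. Both lie inside Col2a1. The hallux stretch did not separate the limbs in the other digits, and the thumb stretch did so in digit V alone.

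**Figure D5:**
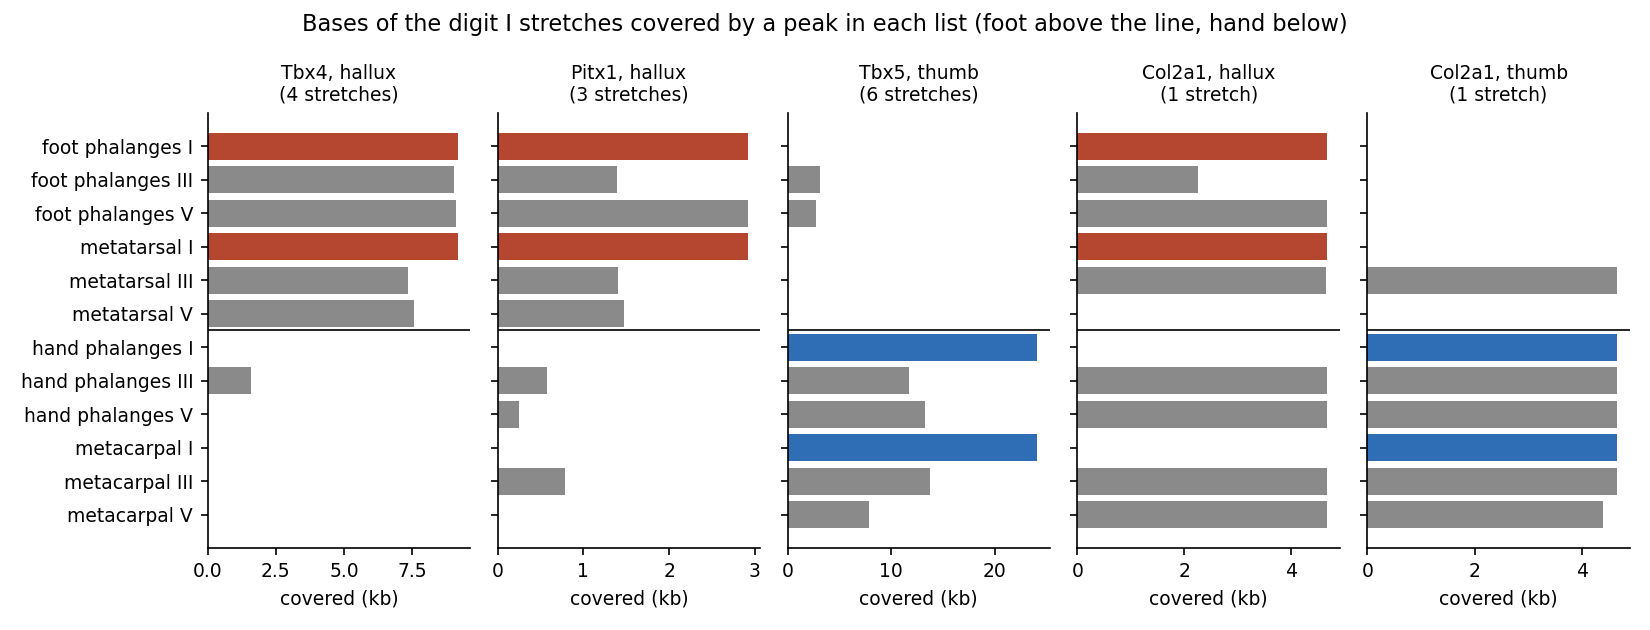
Bases covered by a peak in each of the 12 lists (x axis, kb, a separate scale per panel) within the digit I stretches of Tbx4, Pitx1, Tbx5 and Col2a1. Coloured bars are the digit I lists that define a stretch and grey bars digits III and V; Tbx4 stretches are covered over 7331 to 9102 bp in the foot, Tbx5 stretches over 7851 to 13724 bp in the hand and 0 to 3151 bp in the foot, and the Col2a1 stretches on both sides.

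Beyond limb genes, the regions that kept their side in all of digits III and V were few and scattered. Ranked by mean fold enrichment over the foot lists, the leading 10 hallux regions lay nearest to Slc7a11, Rybp, Cacna1e, Adk, Meioc, Dclk1, Spata16, Snx29, Slc4a9 and Msrb3. Assignment is by distance alone and does not show that the gene is controlled by the region. The region near Slc7a11, a cystine transporter (chr3:50246307-50248136, between genes), had fold enrichments of 7.49 and 7.43 in foot phalanges and metatarsal of digit I, 9.66 and 10.2 in digit III and 6.06 and 10.9 in digit V. The region near Rybp, a Polycomb component (chr6:100025091-100026440, between genes), had 10.4 and 9.18, 8.64 and 8.30, and 7.63 and 7.24. Within Cacna1e, a calcium channel subunit (chr1:154631622-154634107), the values were 8.46 and 10.9, 8.24 and 7.04, and 7.29 and 6.83. All 3 were called in 6 of 6 foot lists and 0 of 6 hand lists.

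The 4 thumb regions with a complete forelimb side lay nearest to Mapkapk3, Pou4f3, Galc and Slc39a11. The region 0.1 kb from Mapkapk3, a kinase downstream of p38 (chr9:107253292-107256310), had fold enrichments of 13.8 in hand phalanges and 13.5 in metacarpal of digit I. Digit III gave 7.22 and 7.37, and digit V 5.21 and 5.60. Pou4f3, a POU-domain factor known from sensory hair cells, had its region 54.0 kb away (chr18:42449282-42450985), with 8.82 and 8.87, 9.20 and 10.4, and 7.93 and 5.34 in the same order. All 6 hand lists called both regions, and no foot list did. Galc (chr12:97465268-97466756) and Slc39a11 (chr11:113131592-113134038) had the same calls and were members in the full lists alone. Adk, an adenosine kinase, held members of both kinds: 1 hallux region with a complete hindlimb side (chr14:21286920-21288455) and 2 thumb regions without a complete forelimb side.

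Members called in no list of digits III and V made up 16.6% of the thumb regions and 3.79% of the hallux regions, and 18.2% and 4.94% at equal length. This contrast was not tested. Of these thumb regions the one nearest to Il16, a cytokine (chr7:83755869-83757665), led by mean fold enrichment over both thumb lists, with 8.76 in hand phalanges and 16.6 in metacarpal (mean 12.7). Epha5 (an ephrin receptor), Barhl1, Igf2, Cidea and Glis3 followed, with means of 12.02, 11.13, 11.08, 11.05 and 10.95. The region at Igf2, a growth factor, lay 0.9 kb from an end of the gene and inside it (chr7:142650527-142652871), with 10.2 and 11.9. On the hallux side, Pcnx2 led with a region of 326 bp (chr8:125779061-125779386) at 56.2 in foot phalanges and 21.0 in metatarsal, followed by Celf2 with one of 291 bp at 12.6 and 11.5. Slc25a33, Creb5, Mex3c and Tmem176b followed, with means of 11.21, 8.169, 7.415 and 7.224. Both leading hallux regions were far narrower than the median hallux region of 1686 bp.

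Joint genes were also represented on the hallux side. Of 168 regions at the 18 listed joint genes, 12 (7.14%) were hallux regions, at 10 genes, and 1 (0.595%) was a thumb region, against 4.05% and 1.05% of all regions. At equal length 9 of 153 (5.88%) were hallux regions, against 2.19%, and 2 were thumb regions. Creb5, a factor of articular cartilage formation, had 3 hallux regions and 1 thumb region. Gdf6, a growth factor of joint development, had a hallux region (chr4:9981335-9982651) with fold enrichments of 7.67 and 7.43 in digit I, 8.53 in foot phalanges of digit III and 7.02 and 7.24 in foot phalanges and metatarsal of digit V, and no hand list called it. Gdf5, a marker of the joint interzone, had 2 regions in all 4 digit I lists and no member.

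Patterning genes of the anterior-posterior axis had 18 hallux regions among 365 (4.93%), at 13 genes including Hand1, Gli2, Bmp7 and Asb4 with 2 each, and 0 thumb regions, against 4.05% and 1.05% of all regions, so the hallux share was near the background. At equal length they had 3 hallux and 4 thumb regions among 316 (0.949% and 1.27%), against 2.19% and 2.3%. Alx4 and Pax9, factors of anterior patterning and skeletal condensation, had no member. The 17 regions of the posterior HoxA and HoxD genes held no member in either setting.

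In digit I, genes of resting and proliferating chondrocytes leaned the other way. Of their 201 regions, 2 (0.995%) were hallux regions (Cnmd and Matn1) and 5 (2.49%) thumb regions (Sox5 and Trps1 with 2 each, Col9a1 with 1), against 4.05% and 1.05% of all regions. At equal length these became 0 and 9 of 181 (4.97%), against 2.3% of all regions. Trps1, a repressor that acts in growth plate maturation, was called in 11 and 18 of its 27 regions in the hallux lists and in 19 and 22 in the thumb lists. In the phalanges of digits III and V the counts were 17 and 10 in the foot and 19 and 12 in the hand, and in the metapodials 20 and 16 against 21 and 20. The hand list was higher in each of the 4 pairs (mean difference -2.25 regions, hindlimb minus forelimb, two-sided exact permutation p = 0.125, the smallest possible). This test too is on a gene picked with earlier results known. Over all 20 listed genes, called regions numbered 153, 114, 139 and 107 in the foot and 135, 104, 150 and 125 in the hand, in the same order. The foot was higher in the phalanges and the hand in the metapodials, so the list as a whole did not share the Trps1 difference. Growth plate signalling genes had 10 hallux and 10 thumb regions among 314 (3.18% each, against 4.05% and 1.05% of all regions) and 3 and 15 among 268 at equal length (1.12% and 5.60%, against 2.19% and 2.3%). Members among them included Bmpr1b, Hhip and Pde4d on both sides. The 97 regions of prehypertrophic and hypertrophic genes held 5 hallux (5.15%) and 2 thumb regions (2.06%), and the perichondrium and osteoblast list 3 (4.35%) and 2 (2.9%) among 69. At equal length the first list had 1 hallux (1.14%) and 4 thumb regions (4.55%) among 88. The second then had 3 (4.48%) and 2 (2.99%) among 67, both against 2.19% and 2.3%. The thumb share of the first list was thus above that of all regions in both settings, on 2 and 4 regions.

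All 20 resting and proliferating chondrocyte genes had a region called in all 4 digit I lists, and these are the defining genes of the labelled cell type. The same held for all 14 perichondrium and osteoblast genes, all 18 joint genes and 10 of 11 endothelial genes. Such a region therefore does not mark the cell type. Genes of other cell types had called regions too. The skeletal muscle list gave 4 hallux regions among 25 (16%), at Acta1, Myf5, Pax3 and Pax7, and 0 thumb regions, against 4.05% and 1.05% of all regions, and 1 hallux region of 21 (4.76%) at equal length, against 2.19%. Called muscle regions numbered 20 and 23 in the hallux lists and 13 and 10 in the thumb lists, and 14 to 19 in hindlimb and 9 to 18 in forelimb lists of digits III and V. All 11 muscle genes had a region in digit I, and 4 of them one in all 4 lists. The part of muscle tissue in the other hallux counts was not tested. Against the same 4.05% and 1.05%, tendon genes gave 2 hallux regions of 24 (8.33%), epidermis 3 of 28 (10.7%) and nerve and Schwann cell 0 of 25. At equal length these hallux counts were 1 of 21 (4.76%), 0 of 25 and 0 of 23, against 2.19%. Endothelium gave 3 hallux (4.48%) and 1 thumb region (1.49%) of 67, and blood and macrophage 2 (2.99%) and 1 (1.49%) of 67. Both were near the background in the full lists. At equal length endothelium had 3 (5.17%) and 1 (1.72%) of 58, against 2.19% and 2.3%. Blood and macrophage then had 1 (1.79%) and 2 (3.57%) of 56.

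Genes outside the lists with the most hallux regions were Anks1b, Erc2, Ets1, Gimd1, Gramd3 and Mctp2, with 4 each. At Erc2, a protein of presynaptic zones, 1 of the 4 (chr14:27788720-27790490) had a complete hindlimb side, and at Mctp2 1 (chr7:72441391-72442689) did. On the thumb side no gene had more than 2, reached first in alphabetical order by Adamts5, a protease of cartilage aggrecan, and by Adgrl2, Adk, Ap1m1, Arhgap15 and Bcl2l1. The Adamts5 regions were called in 3 and 2 of 4 forelimb and in 2 and 1 of 4 hindlimb lists of digits III and V.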

How the data were processed

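The data are 12 deposited peak lists, 1 per group of 3 libraries, on the mm10 build. MACS3, Picard 2.9.0 and Bowtie2 2.3.4.1 are listed in the submitters' processing notes; their roles and settings, read trimming and any shift of cut sites are not given in the sources used here. Per the peak names in the files, peaks were called on pooled libraries, and the file names state a selection by irreproducible discovery rate. The authors deposited, per peak, a summit offset in bases, a −log10 p-value, a fold (a linear ratio of signal to background) and a score; a −log10 q-value column was not used. These are the peak caller's values and were used only to describe, rank or shorten a list. The deposited lists end at different −log10 p-values (30.99, 41.53, 48.45 and 49.63 for foot phalanges, metatarsal, hand phalanges and metacarpal of digit I), and read depth per library is unknown.

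Peaks of the 4 digit I lists were merged at an overlap of 1 bp, so that digits III and V did not shape the regions, and 1 covered bp made a call. Every list is in the order of its p-values, so its first 36194 lines are its most significant peaks. Limb labels were permuted exactly within element and digit (16 labellings, two-sided). Each region took the name of the protein-coding gene whose end was closest (within 1 Mb) in a RefSeq table for GRCm38.p6, which shares mm10 coordinates. Of 220 listed genes, 145 had a promoter window in the RefSeq table. Named were up to 5 genes per list and direction, up to 10 regions with a complete limb side, 6 regions found in no list of digits III and V, 6 on the opposite side and 6 genes outside the lists per direction, and landmark genes; others are said to have been chosen after their values were seen. A few items that this rule names are not reported here. Members and gene lists were chosen with earlier results of these data known. Alternatives were equal length, merging over 12 lists, 50% cover, 500-bp summit windows, the more significant 50% of each list, a 1 kb margin, autosomes, single digits or elements and free permutation. The shortened metatarsal list, stretches without merging, leaving out the metapodials of digit III, and element splits and free permutation at equal length were added after the data were seen. Region merging and tests were checked on simulated lists. Python 3.11.15, numpy 2.4.6 and pandas 2.3.3 were used.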

Additional observations from a re-analysis of the deposited data

Results flagged for a closer look

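Some members took the opposite limb side in another digit: every list of their own limb lacked them there and both lists of the other limb called them. None of these reversals was tested. There were 39 hallux regions of this kind in digit III and 17 in digit V, and 5 thumb regions in digit III and 2 in digit V. The hallux shares were 1.82% and 0.796%, against 1.44% and 1.34% of all digit I regions on the forelimb side. The thumb shares were 0.901% and 0.36%, against 1.28% and 2.39% on the hindlimb side. Such regions were thus near or below the share over all regions. Those named are 6 hallux and 5 thumb regions from the first by mean fold enrichment over their own digit I lists.

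Hallux regions on the forelimb side in digit III lay nearest to Cpne2, a copine (mean fold enrichment 7.422), Dock5 (7.363), Tmem182 (7.345) and Alkbh8 (7.339), and at chr12:43036725-43037891 with no protein-coding gene within 1 Mb (7.375). In digit V the region nearest to H2-M10.5 was reversed (7.276), and the Tmem182 region returned to the hindlimb side there. Thumb regions on the hindlimb side in digit III lay nearest to Rpl31, a ribosomal protein gene (7.668), Cebpb, a transcription factor (7.606), and Tbc1d16 (7.488), and in digit V to Agap1 (8.044) and Farp1 (7.69). In the digit I lists of the other limb none of these regions was called, as the rule requires.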

How the results depend on the processing

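Counts of members moved with list length and with merging, and the direction of the 3 tested differences did not change under any alternative run. At equal length there were 1013 hallux regions, of which 94 kept their side in digit III and 161 in digit V, and 1065 thumb regions, of which 56, 93 and 10 did so in digit III, digit V and both. The more significant 50% of each list gave 818 hallux regions (42, 100 and 15 in that order) and 71 thumb regions (8, 3 and 0). With the metatarsal list of digit I alone shortened, 992 hallux regions (79, 179 and 30) and 1241 thumb regions (47 and 103 in digits III and V) were left. A cover of 50% of the region gave 940 thumb regions, of which 1 kept its side in both digits, and 500-bp summit windows 61 thumb regions with the forelimb side in digit V. Stretches without merging gave 1731 for the thumb (61, 103 and 8). The cause of these moves was not tested, except that shorter lists hold fewer peaks. The hallux difference ranged from 10.7 to 31.9 points over the alternatives, the thumb difference from -29.7 to -4.23, and the difference between them from 29.0 to 47.9. Free permutation over 70 labellings, which ignores element and digit, gave exact permutation p-values of 0.114, 0.229 and 0.0571 for the 3 differences, and at equal length 0.0286 (the smallest possible, for a hallux difference of 26.5 points), 0.0857 and 0.0571. This was the only alternative in which a difference passed 0.05, and it was added after the data were seen. Ordering peaks by p-value was not run separately, since the files already have that order. No paired analysis was possible because each deposited list pools the 3 replicates, so replicate numbers could not be matched; lists were paired by element and digit alone. Without depths per library, a region missing from a list shows only that it was not called there.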

Other observations

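The hallux region with the highest fold enrichment lay 32.4 kb from Epm2a (chr10:11491806-11492264, 459 bp), at 272.3 in foot phalanges and 138.5 in metatarsal of digit I. Outside digit I it was listed at 386.5 and 242.8 in hand phalanges of digits III and V, 144.1 in metacarpal and 180.3 in metatarsal of digit V, and was in none of the other 6 lists. The Pcnx2 region, at 56.22 and 20.98, came next, and both were far narrower than most members. Both were chosen after their values were seen.

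Of the 3 widest hallux stretches without merging, those at Slc29a4, a monoamine transporter (chr5:142716523-142722551, 6029 bp), and at Ssbp3 (chr4:106983771-106989380, 5610 bp), lay inside the gene. The Slc29a4 stretch was called in 3 of 4 hindlimb and 0 of 4 forelimb lists of digits III and V, and the Ssbp3 stretch in 3 and 2.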
